A study of Mus musculus with 12 samples.

Results

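The genes described here are 32 genes of the lysosome. They are 30 hydrolases, hydrolase cofactors and membrane proteins of the organelle together with Tfeb and Tfe3, a pair of transcription factors of lysosomal genes. They were taken by symbol from the deposited table of mouse genes. All 32 symbols were found there once each, among 21899 genes. Every one of the 32 also passed the filter on low counts, which kept 11656 genes.

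RNA was sequenced from primary bone marrow-derived macrophages, which are macrophages grown from marrow precursors, of wild-type mice. There were 4 groups of 3 libraries each: macrophages given both PgLPS and CS-PA/CNP, macrophages given PgLPS, macrophages given CS-PA/CNP, and control macrophages. The labels do not expand either abbreviation and give no dose, no time, no sex or age of the animals and no order of the agents, and the series title places the work in a composite hydrogel for periodontitis and hypertension. Nothing in the labels says that the libraries of a group came from separate animals or cultures, so p-values measure the spread between these libraries, which may be technical. In bulk RNA, fewer cells that express a gene and less RNA per cell cannot be told apart.

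Lysosomes are acidic organelles in which hydrolases take apart lipids, sugar chains and proteins that reach them by endocytosis, phagocytosis and autophagy. Most hydrolases are made in the endoplasmic reticulum, tagged with mannose phosphate in the Golgi and carried to the lysosome, whose membrane is lined by heavily glycosylated proteins such as the LAMPs. TFEB and TFE3 are related helix-loop-helix transcription factors that bind E-box elements upstream of many of these genes, and their entry into the nucleus is controlled by phosphorylation, which RNA levels do not report. Macrophages are rich in lysosomes because they digest what they engulf. Inherited loss of single hydrolases leads to lysosomal storage diseases, and several of the genes below are known best from them.

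The libraries held 14992707 to 20082900 reads. The 7 macrophage marker genes (Adgre1, Csf1r, Itgam, Fcgr1, Mertk, Lyz2 and Cx3cr1) were all detected, and their summed level was 26100 to 27400 CPM with PgLPS and CS-PA/CNP, 26100 to 28300 CPM with PgLPS, 21200 to 22800 CPM with CS-PA/CNP and 18600 to 19800 CPM in control libraries. Most of that sum was Lyz2, and single markers differed in opposite directions with PgLPS: Cx3cr1 averaged 29 ± 2.02 CPM with PgLPS and 270 ± 5.98 CPM in control, while Fcgr1 averaged 1780 ± 130 CPM with PgLPS and 153 ± 6.82 CPM in control, and Adgre1 averaged 3920 ± 51.1 CPM with PgLPS and 1050 ± 28.8 CPM in control (SD, n = 3 each). Summed markers of other cell types were far lower, and some differed between the groups. The 7 neutrophil and granule precursor genes summed to 125 to 141 CPM with both agents, 159 to 180 CPM with PgLPS, 64.2 to 93.2 CPM with CS-PA/CNP and 80.7 to 101 CPM in control. The 7 stromal genes summed to 4.63 to 7.36 CPM with both agents, 8.22 to 61.8 CPM with PgLPS, where library 1 was the highest, 2.32 to 4.21 CPM with CS-PA/CNP and 0.891 to 3.82 CPM in control. The 5 osteoclast genes, of which Calcr had no read, summed to 45.7 to 53.9 CPM with both agents, 40.6 to 44.4 CPM with PgLPS, 34.2 to 37.3 CPM with CS-PA/CNP and 51.7 to 56.4 CPM in control. The 5 dendritic cell genes summed to 3.65 to 4.88 CPM with both agents, 1.95 to 4.04 CPM with PgLPS, 0.755 to 1.12 CPM with CS-PA/CNP and 0.855 to 1.68 CPM in control. The 5 T cell genes found summed to 5.67 to 12 CPM with both agents and 6.42 to 9.61 CPM with PgLPS. They summed to 8.2 to 9.56 CPM with CS-PA/CNP and 7.44 to 10.5 CPM in control. Nearly all of that sum was Cd4, while Cd3d and Cd8a had no read in any library. The part of these marker levels in the results below was not tested. These CPM are counts scaled to a common library size, which is the library total times its TMM factor, a correction that centres the log ratios of most genes between libraries. That factor was 0.89 to 0.901 with both agents, 0.853 to 0.875 with PgLPS, 1.11 to 1.12 with CS-PA/CNP and 1.15 to 1.16 in control. With plain library totals in place of TMM, the median gene moved by -0.41 on the log2 scale for PgLPS against control, so the directions of genes with small changes depend on this choice, and each called gene whose direction turned is named as such. For genes not called, this was looked at in PgLPS against control alone.

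The 32 genes held 1.96 to 2.12% of all reads with PgLPS and CS-PA/CNP, 1.77 to 1.87% with PgLPS, 2.78 to 2.94% with CS-PA/CNP and 2.92 to 3.08% in control. The means were 2.02 ± 0.085% with both agents, 1.82 ± 0.0503% with PgLPS, 2.87 ± 0.0808% with CS-PA/CNP and 3.01 ± 0.0833% in control (SD, n = 3 each). No library with PgLPS, alone or with CS-PA/CNP, reached the share of any library without it. Most of that gap lay in a pair of abundant genes. Gpnmb, which encodes a transmembrane glycoprotein of lysosomes and melanosomes, held 0.531 to 0.578% of reads with both agents, 0.42 to 0.449% with PgLPS, 0.959 to 1.02% with CS-PA/CNP and 1.02 to 1.06% in control. Psap, which encodes the precursor of the saposins, small proteins that help hydrolases reach sphingolipids, held 0.624 to 0.68% with both agents, 0.537 to 0.565% with PgLPS, 0.853 to 0.903% with CS-PA/CNP and 0.855 to 0.922% in control. The other 30 genes together held 0.801 to 0.866% with both agents, 0.812 to 0.856% with PgLPS, 0.964 to 1.01% with CS-PA/CNP and 1.04 to 1.1% in control. All these shares are fractions of plain library totals. On that scale the median log2 fold change of all tested genes was itself -0.42 for PgLPS against control. The direction of the lower share with PgLPS is therefore not particular to these genes. Its size was not compared, since a sum led by Gpnmb and Psap is unlike a median over single genes.

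**Figure D1:**
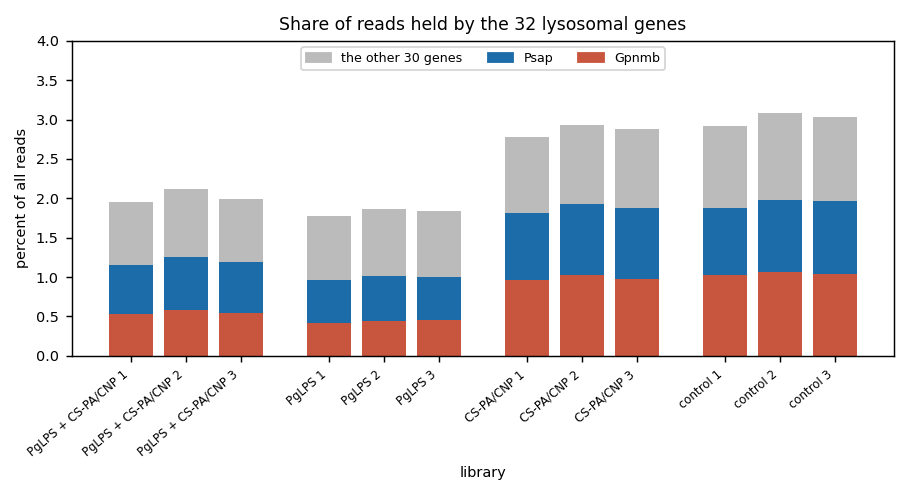
Share of all reads of each of the 12 libraries (vertical axis, percent) held by the 32 lysosomal genes, split into Gpnmb, Psap and the other 30 genes. The 6 libraries with PgLPS reach 1.77 to 2.12%, below the 2.78 to 3.08% of the 6 libraries without it. On this scale of library totals the median of all tested genes was also lower with PgLPS than in control.

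Levels compared between genes are given per gene length, as RPKM, which are counts divided by the length in the table and the library total. In control macrophages Psap was the highest at 3280 ± 140 RPKM, followed by Gpnmb at 1600 ± 25.9 RPKM and Cd68, the macrophage glycoprotein macrosialin, at 1370 ± 70.6 RPKM (SD, n = 3 each). Neighbours in this upper order were apart by more than their spread. Grn at 464 ± 22.1 RPKM and Lamp1 at 418 ± 4.13 RPKM came next, with Hexa at 344 ± 16.7 RPKM and Cd63 at 211 ± 10.2 RPKM after them. At the low end stood Sgsh at 8.85 ± 0.563 RPKM, Smpd1 at 8.22 ± 0.68 RPKM and Arsb at 5.15 ± 0.474 RPKM, and the order of Sgsh and Smpd1 was within their spread. Tfe3 at 18 ± 0.509 RPKM was above Tfeb at 12.7 ± 1.61 RPKM.

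Replicate libraries were close for most of these genes. The coefficient of variation of the CPM over 3 libraries had a median over the 32 genes of 5.48% with both agents, 5.37% with PgLPS, 3.68% with CS-PA/CNP and 4.5% in control. Sgsh varied most with both agents, at 25.5%. The deviations were not spread evenly over libraries: the library numbered 2 had the highest CPM of its group for 23 of the 32 genes with both agents, 17 with PgLPS, 18 with CS-PA/CNP and 18 in control. Among all tested genes that library was the highest for 40.1%, 37.6%, 32.5% and 32.2% of genes in those groups.

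PgLPS against control asks how the agent alone moved the lysosomal genes. The largest changes were falls in enzymes that take apart heparan sulfate, dermatan sulfate and glycoproteins, led by Sgsh, and in Tfeb and Gpnmb. Rises were smaller and included Tfe3, Neu1, Grn and Lamp2. With edgeR's quasi-likelihood test and a Benjamini-Hochberg adjusted p under 0.05 over all tested genes, 15 of the 32 genes were lower and 10 higher with PgLPS, and 7 were not called. Of all tested genes 31.6% were lower and 32.2% higher in this comparison, so the number of lysosomal genes called higher was close to that background and the number called lower was above it, a difference that was not tested. The median log2 fold change of the 32 genes was -0.12, with a range of -2.08 to 0.70, against a median of 0 over all genes tested. With library totals the counts were 25 lower and 4 higher, and the median of the 32 genes was -0.54, against -0.42 over all tested genes. Of the calls over all genes 21.8% were then rises, against 50.5% with TMM. The share of all tested genes called lower with library totals is not given here.

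Sgsh, on chromosome 11, encodes sulfamidase, which removes sulfate from heparan sulfate. It stood at 7.09, 8.19 and 8.64 CPM with PgLPS, against 33.6, 36.3 and 31.9 CPM in control libraries. The groups lay far apart, and no other of the 32 genes moved as much. The log2 fold change was -2.08 ± 0.14 (SE), with an adjusted p of 2.2e-10 by edgeR. Of the 7 enzymes of glycosaminoglycan breakdown, Sgsh included, 4 were lower, 2 were higher with a direction that turned under library totals, and 1 was not called.

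Arsb, the sulfatase of dermatan and chondroitin sulfate, had 14.3, 14 and 12.8 CPM with PgLPS, against 29.6, 25.4 and 26 CPM in control. Its log2 fold change was -0.98 ± 0.11 (edgeR, adjusted p = 3.2e-07), and the groups did not overlap. Naglu, the glucosaminidase that acts on heparan sulfate, fell by 0.60 ± 0.09 on the log2 scale (edgeR, adjusted p = 6.4e-06), with 63, 72.9 and 67 CPM with PgLPS and 95.6, 108 and 104 CPM in control. Gusb, beta-glucuronidase, fell by 0.58 ± 0.06 (edgeR, adjusted p = 1.3e-07). All 4 of these enzymes act on glycosaminoglycans, and each was lower in every PgLPS library than in every control library. No share of all tested genes with groups apart in this way is given, here or for the genes below. Galns, a sulfatase of keratan sulfate, was higher by 0.16 ± 0.07 (edgeR, adjusted p = 0.0418) and Ids, iduronate sulfatase, by 0.21 ± 0.08 (edgeR, adjusted p = 0.0354), but with library totals both turned lower, to -0.26 for Galns and -0.21 for Ids. The PgLPS and control libraries of Ids overlapped. Each of these calls was lost in several fits with 1 library left out. Both were also lost with no filter on low counts and in a fit of the compared groups alone. For Galns the adjusted p (edgeR) was 0.227, 0.104 and 0.0798 without control library 1, 2 or 3, and 0.0909 and 0.14 without PgLPS library 2 or 3. For Ids it was 0.25 and 0.131 without control library 2 or 3, and 0.133 and 0.0861 without PgLPS library 1 or 3. Idua, alpha-L-iduronidase, had 45.3, 46.7 and 43.3 CPM with PgLPS and 48.6, 49.6 and 49 CPM in control, and was not called (edgeR, adjusted p = 0.15), though with library totals it was lower at -0.54 (edgeR, adjusted p = 2.1e-06).

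Of the 4 glycosidases of glycoproteins and glycogen, 3 were lower and 0 were higher. Manba, beta-mannosidase, had 27.2, 29.9 and 28.8 CPM with PgLPS, against 52.8, 54.9 and 57 CPM in control. Its level was thus lower in each PgLPS library than in any control library, with a log2 fold change of -0.94 ± 0.08 (edgeR, adjusted p = 5.0e-09). Fuca1, alpha-L-fucosidase, had 94.6, 108 and 88.8 CPM with PgLPS, against 164, 192 and 182 CPM in control, a log2 fold change of -0.88 ± 0.08 (edgeR, adjusted p = 1.0e-08). Man2b1, the lysosomal alpha-mannosidase, had 422, 422 and 429 CPM with PgLPS and 602, 642 and 633 CPM in control. It fell by 0.56 ± 0.06 on the log2 scale (edgeR, adjusted p = 4.7e-08). The gene that was not called, Gaa, encodes the acid alpha-glucosidase that breaks down glycogen, and had 98.8, 101 and 109 CPM with PgLPS and 90, 107 and 101 CPM in control (edgeR, adjusted p = 0.547). With library totals it was called lower, at -0.36 (edgeR, adjusted p = 1.7e-04).

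Among the 8 genes of sphingolipid and ganglioside breakdown, 3 were lower, 2 were higher, of which Smpd1 turned lower with library totals, and 3 were not called. Hexa, the alpha subunit of beta-hexosaminidase, had 415, 477 and 410 CPM with PgLPS, against 564, 629 and 598 CPM in control, and fell by 0.46 ± 0.08 on the log2 scale (edgeR, adjusted p = 9.5e-05). Psap fell by 0.29 ± 0.05 (edgeR, adjusted p = 1.0e-04), with 6140, 6630 and 6430 CPM with PgLPS and 7360, 8040 and 8020 CPM in control. Glb1, the lysosomal beta-galactosidase, fell by 0.23 ± 0.08 (edgeR, adjusted p = 0.0204), a call lost without control library 2 (adjusted p = 0.0523) or PgLPS library 3 (adjusted p = 0.0948). Neu1, on chromosome 17, encodes the sialidase that removes terminal sialic acid from glycoproteins and gangliosides. It had 141, 154 and 132 CPM with PgLPS, against 80.9, 90.8 and 99 CPM in control, and was higher by 0.65 ± 0.09 (edgeR, adjusted p = 2.1e-06). Smpd1, acid sphingomyelinase, had 27.2, 36.4 and 28.7 CPM with PgLPS and 22.9, 22.4 and 26.1 CPM in control. Its rise of 0.37 ± 0.11 (edgeR, adjusted p = 0.00771) had an adjusted p of 0.069 without PgLPS library 2, its highest library, and the direction turned to -0.04 with library totals. Gla, Asah1 and Arsa, which encode alpha-galactosidase A, acid ceramidase and arylsulfatase A, were not called, with log2 fold changes of -0.02, -0.05 and -0.13. With library totals they were called lower, at -0.44 for Gla (edgeR, adjusted p = 1.0e-05), -0.46 for Asah1 (edgeR, adjusted p = 4.0e-07) and -0.54 for Arsa (edgeR, adjusted p = 1.7e-05).

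The 4 genes named for neuronal ceroid lipofuscinosis, storage diseases of neurons, split: 2 were higher, 1 was lower and 1 was not called. Grn, on chromosome 11, encodes progranulin, a secreted protein that is cleaved into granulins in lysosomes. It had 2070, 2300 and 2170 CPM with PgLPS, against 1320, 1470 and 1420 CPM in control. The log2 fold change was 0.64 ± 0.06 (edgeR, adjusted p = 2.0e-08), and the groups lay well apart. Cln3, a membrane protein of lysosomes, rose by 0.46 ± 0.06 (edgeR, adjusted p = 3.8e-06), of which 0.05 was left with library totals, where the call was lost (adjusted p = 0.48). Tpp1, a tripeptidyl peptidase, had 247, 236 and 252 CPM with PgLPS and 322, 318 and 316 CPM in control, and fell by 0.38 ± 0.05 (edgeR, adjusted p = 2.5e-06). Ppt1, which removes palmitate from proteins, had 105, 94.4 and 93 CPM with PgLPS and 109, 101 and 107 CPM in control, and was not called (edgeR, adjusted p = 0.184), though with library totals it was lower at -0.53 (edgeR, adjusted p = 5.0e-06).

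Of the 7 membrane proteins, 3 were lower, 3 were higher, of which Lamp1 and Scarb2 turned lower with library totals, and 1 was not called. Gpnmb, on chromosome 6, had 4810, 5210 and 5190 CPM with PgLPS, against 8820, 9220 and 9080 CPM in control. It fell by 0.84 ± 0.05 on the log2 scale (edgeR, adjusted p = 3.6e-11), the smallest p of the 32 genes. Cd68 fell by 0.32 ± 0.06 (edgeR, adjusted p = 2.0e-04), with 1080, 1290 and 1220 CPM with PgLPS and 1400, 1570 and 1510 CPM in control. Mcoln1, the mucolipin cation channel through which calcium leaves the lysosome, fell by 0.23 ± 0.07 (edgeR, adjusted p = 0.011), and by 0.18 without PgLPS library 3, where the adjusted p was 0.0688. Lamp2, on chromosome X, encodes a main glycoprotein of the lysosomal membrane. It had 719, 673 and 668 CPM with PgLPS, against 487, 464 and 463 CPM in control, a rise of 0.54 ± 0.05 (edgeR, adjusted p = 3.1e-08). Its relative Lamp1 was higher by 0.24 ± 0.05 (edgeR, adjusted p = 4.2e-04) and Scarb2, the receptor that carries glucocerebrosidase to lysosomes, by 0.31 ± 0.05 (edgeR, adjusted p = 7.5e-05), but both turned lower with library totals, to -0.18 for Lamp1 and -0.11 for Scarb2. The tetraspanin Cd63 had 686, 876 and 734 CPM with PgLPS and 632, 700 and 691 CPM in control and was not called (edgeR, adjusted p = 0.086). It was called higher without PgLPS library 1 (edgeR, adjusted p = 0.023) and lower at -0.23 with library totals (edgeR, adjusted p = 0.0205).

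Tfeb and Tfe3 moved in opposite directions. Tfeb, on chromosome 17, had 29.6, 34.8 and 29 CPM with PgLPS, against 53.2, 69.1 and 65.2 CPM in control, a log2 fold change of -1.0 ± 0.10 (edgeR, adjusted p = 8.1e-08). Tfe3, on chromosome X, had 229, 236 and 240 CPM with PgLPS, against 142, 150 and 142 CPM in control, a log2 fold change of 0.70 ± 0.06 (edgeR, adjusted p = 1.8e-09). Neither gene's groups overlapped. Of the calls in PgLPS against control, 13 of the 15 falls (Sgsh, Tfeb, Arsb, Manba, Fuca1, Gpnmb, Naglu, Gusb, Man2b1, Hexa, Tpp1, Cd68 and Psap) and 4 of the 10 rises (Tfe3, Neu1, Grn and Lamp2) held under each of the 12 other settings run, among them library totals and the loss of each library in turn. Library totals moved the median gene by -0.41, so that setting by construction works against rises and for falls. Lamp1, Scarb2 and Cln3 changed call or direction under that setting alone. The same counts over all called genes were not made.

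**Figure D2:**
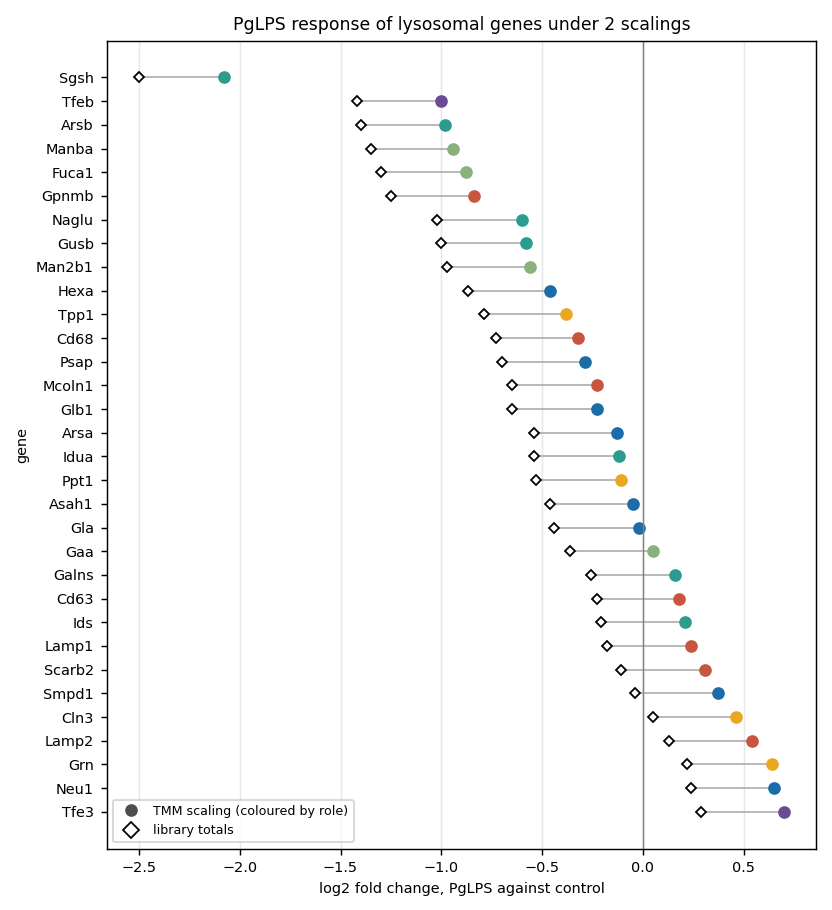
Log2 fold change of each of the 32 genes for PgLPS against control, sorted, with TMM scaling (filled circles: blue, sphingolipid breakdown; teal, glycosaminoglycan breakdown; light green, glycosidases; yellow, ceroid lipofuscinosis genes; red, membrane proteins; purple, transcription factors) and with library totals (open diamonds). Library totals move every gene to the left, by about the -0.41 that the median gene moves, and 7 genes with small positive values under TMM cross 0.

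Reads of several of these genes cannot be told apart from those of a neighbour, since no source used here says whether the libraries kept the strand, and 9 of the 32 genes overlap another gene of the table. The overlaps that could matter most are those with a well-expressed partner. Ppt1, with 18563 reads over all libraries, overlaps by 129 bases with Cap1, which had 222416 reads on the opposite strand. Cln3, with 26071 reads, overlaps by 876 bases with Apobr, which had 38282 reads. The Idua gene spans Dgkq in part on the opposite strand, with 9743 reads for Idua and 3461 for Dgkq, and Glb1 with 12329 reads shares its strand with Tmppe, which had 3863 reads. The partners of Lamp1, Hexa, Grn, Sgsh and Galns had 0 to 929 reads over all libraries. How those reads were divided was not tested.

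The promoters of these genes were read for the elements that TFEB and TFE3 are known to bind, because both factors changed with PgLPS. RefSeq promoter windows of the GRCm38.p6 build, running from 250 bases before to 50 bases after a gene's start, were found for 30 of the 32 genes (not for Asah1 and Galns). The E-box letters CACGTG, which read alike on both strands, were in the windows of 9 of the 30 genes (30%), and in those of 8.09% of the 27025 genes of the table. The longer core TCACGTGA of the CLEAR element, also the same on both strands and holding an E-box, was in 3 of the 30 genes (10%), against 1.12% of all genes. The M-box letters TCATGTG, searched on both strands, were in 5 of the 30 genes (16.7%; Gla, Grn, Ppt1, Scarb2 and Tpp1), against 4.31% of all genes. The stretches below hold every E-box found, in capitals, and are shown to let the number and the flanks of the elements be compared between genes that rose, fell or were not called with PgLPS. Lamp1 (chr8:13159086-13159160, plus strand) has 4 E-boxes between 61 and 15 bases before its start. Cln3 (chr7:126583338-126583399, minus strand) and Gla (chrX:134601180-134601246, minus strand) have 2 each, as does Mcoln1 (chr8:3500434-3500493, plus strand). Single E-boxes are in Sgsh (chr11:119355520-119355553, minus strand), Naglu (chr11:101070007-101070040, plus strand), Glb1 (chr9:114401016-114401049, plus strand), Gaa (chr11:119267809-119267842, plus strand) and Arsa (chr15:89477425-89477454, minus strand).
Lamp1: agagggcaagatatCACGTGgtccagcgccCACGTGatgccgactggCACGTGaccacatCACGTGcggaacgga
Cln3: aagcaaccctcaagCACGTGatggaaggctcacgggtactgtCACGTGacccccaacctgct
Mcoln1: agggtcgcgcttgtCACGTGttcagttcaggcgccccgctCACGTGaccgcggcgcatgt
Sgsh: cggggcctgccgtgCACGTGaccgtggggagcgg
Naglu: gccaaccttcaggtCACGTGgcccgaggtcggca
Glb1: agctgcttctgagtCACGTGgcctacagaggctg
Gla: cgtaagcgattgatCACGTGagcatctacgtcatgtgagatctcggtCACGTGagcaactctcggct
Gaa: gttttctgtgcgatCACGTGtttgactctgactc
Arsa: cttcaactcagtgtCACGTGttgtctgctc

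The genes with these letters did not move one way with PgLPS. E-boxes stood in 2 of 9 genes called higher (Lamp1, which turned lower with library totals, and Cln3), in 4 of 15 called lower (Sgsh, Naglu, Glb1 and Mcoln1) and in 3 of 6 not called (Gla, Gaa and Arsa), counting genes with a promoter entry. The CLEAR core stood in 1 gene of each kind: Cln3, Mcoln1 and Gla. Tfeb, Tfe3, Gpnmb, Psap, Arsb, Manba and Fuca1 held no E-box in this window, which says only that these letters were not in it.

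The question of PgLPS and CS-PA/CNP against PgLPS is how CS-PA/CNP moved these genes in macrophages that also had PgLPS. The changes were small, from -0.40 to 0.44 on the log2 scale. Arsb, Tfeb, Manba and Gpnmb, which were lower with PgLPS than in control, were higher with both agents than with PgLPS, and Ppt1 and Lamp2 fell most. By edgeR 6 of the 32 genes were higher, 5 lower and 21 not called, while 9.42% of all tested genes were higher and 10% lower. The median over the 32 genes was 0.04, against -0.01 over all genes tested. This comparison and PgLPS against control share the PgLPS libraries, so chance highs and lows of those libraries enter both with opposite sign.

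Arsb had 16.3, 18.2 and 21.2 CPM with both agents, against 14.3, 14 and 12.8 CPM with PgLPS. It was higher by 0.44 ± 0.12 (edgeR, adjusted p = 0.00982), a call lost without PgLPS library 3 (adjusted p = 0.0528) or library 3 of both agents (0.0635). The groups did not overlap, and the level with both agents stayed below that of every control library, of which the lowest had 25.4 CPM. Tfeb had 36.1, 44.6 and 39.7 CPM with both agents, against 29.6, 34.8 and 29 CPM with PgLPS, and was higher by 0.37 ± 0.11 (edgeR, adjusted p = 0.0187). That call was lost without PgLPS library 1 (adjusted p = 0.063), PgLPS library 3 (0.0924) or library 2 of both agents (0.0859). Manba had 37.1, 36.2 and 33.6 CPM with both agents, against 27.2, 29.9 and 28.8 CPM with PgLPS. Its rise of 0.32 ± 0.08 (edgeR, adjusted p = 0.00912) and that of Gpnmb were called under each other setting run. Gpnmb had 5910, 6500 and 6070 CPM with both agents, against 4810, 5210 and 5190 CPM with PgLPS, a rise of 0.28 ± 0.05 (edgeR, adjusted p = 4.6e-04). Every library with both agents was above every PgLPS library for each of these genes.

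Gaa and Psap were also higher with both agents. Gaa had 118, 118 and 130 CPM with both agents, against 98.8, 101 and 109 CPM with PgLPS, a rise of 0.25 ± 0.07 (edgeR, adjusted p = 0.0192). The adjusted p was 0.0702 without PgLPS library 1 and 0.095 when library 3 of both agents was left out. Psap had 6960, 7650 and 7110 CPM with both agents, against 6140, 6630 and 6430 CPM with PgLPS, a rise of 0.18 ± 0.05 (edgeR, adjusted p = 0.0217). It was no longer called without PgLPS library 1 (adjusted p = 0.0847), PgLPS library 3 (0.0571) or library 2 of both agents (0.0911). The number of genes called higher was 3 without PgLPS library 1 and 3 without PgLPS library 3.

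The 5 falls included both LAMP genes. Ppt1 had 71.1, 81.5 and 68.3 CPM with both agents, against 105, 94.4 and 93 CPM with PgLPS, a log2 fold change of -0.40 ± 0.08 (edgeR, adjusted p = 6.1e-04). Lamp2 had 558, 567 and 550 CPM with both agents, against 719, 673 and 668 CPM with PgLPS, a log2 fold change of -0.30 ± 0.05 (edgeR, adjusted p = 3.3e-04). Lamp1 had 1000, 1020 and 928 CPM with both agents, against 1120, 1170 and 1150 CPM with PgLPS, a log2 fold change of -0.22 ± 0.05 (edgeR, adjusted p = 0.0036). The groups of these 3 genes did not overlap, and their calls held under each other setting run. Neu1 fell by 0.29 ± 0.09 (edgeR, adjusted p = 0.0231), with 107, 128 and 113 CPM with both agents and 141, 154 and 132 CPM with PgLPS. Its adjusted p was 0.0844 without PgLPS library 2, and 0.118 and 0.0797 when library 1 or 3 of both agents was left out. It was 0.0529 with library totals. Grn fell by 0.18 ± 0.06 (edgeR, adjusted p = 0.0366), with 1850, 2060 and 1850 CPM with both agents and 2070, 2300 and 2170 CPM with PgLPS. Its adjusted p was 0.117 and 0.0858 without PgLPS library 2 or 3, and 0.142 and 0.139 when library 1 or 3 of both agents was left out. It was 0.103 with library totals and 0.095 in a fit of the compared groups alone. The number of genes called lower was 3 when PgLPS library 2, or library 1 or 3 of both agents, was left out. Sgsh, the gene that fell most with PgLPS, had 9.64, 5.85 and 9.33 CPM with both agents against 7.09, 8.19 and 8.64 CPM with PgLPS, and these ranges overlapped.

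**Figure D3:**
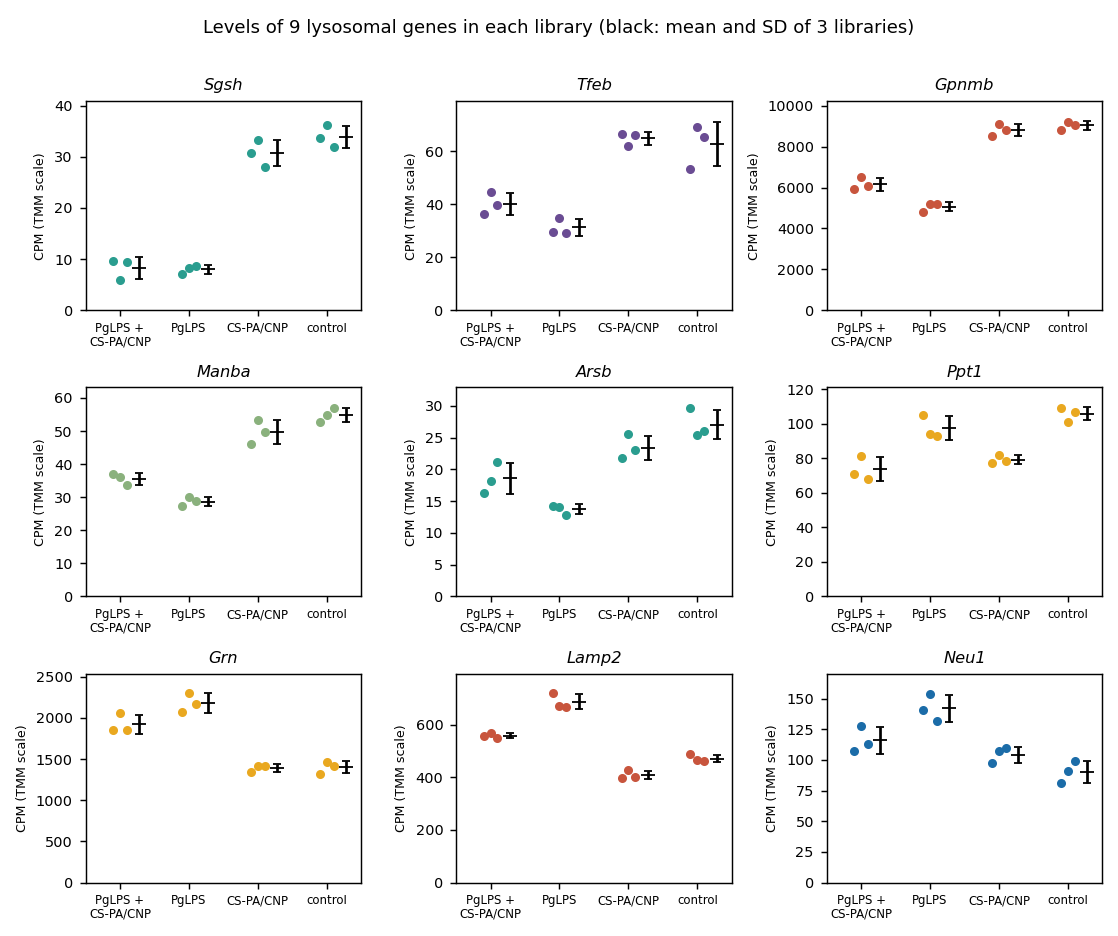
CPM on the TMM scale (vertical axis, from 0) of 9 lysosomal genes in each of the 3 libraries of every group, with the mean and SD in black. Sgsh sits under 10 CPM in all 6 libraries with PgLPS, Gpnmb and Manba with both agents lie between PgLPS and control, and Ppt1 is low in both groups with CS-PA/CNP.

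CS-PA/CNP against control shows the effect of CS-PA/CNP without PgLPS. By edgeR 1 of the 32 genes was higher, 3 were lower and 28 were not called. Of all tested genes 6.67% were higher and 5.61% lower, so the number of lysosomal genes called was close to that background. The median over the 32 genes was -0.08, against 0 over all genes tested. Ppt1 had 77.5, 82.1 and 78.4 CPM with CS-PA/CNP, against 109, 101 and 107 CPM in control. Its log2 fold change of -0.41 ± 0.07 (edgeR, adjusted p = 7.1e-04) was called under each other setting run. Lamp2 had 398, 426 and 400 CPM with CS-PA/CNP, against 487, 464 and 463 CPM in control, and fell by 0.21 ± 0.05 (edgeR, adjusted p = 0.0117), with an adjusted p of 0.0557 without CS-PA/CNP library 3. Man2b1 had 521, 568 and 537 CPM with CS-PA/CNP, against 602, 642 and 633 CPM in control, and fell by 0.21 ± 0.06 (edgeR, adjusted p = 0.018). That call was lost without control library 2 (adjusted p = 0.0619) or 3 (0.0532) and without CS-PA/CNP library 1 (0.0737) or 3 (0.0613). Tfe3 had 171, 160 and 162 CPM with CS-PA/CNP, against 142, 150 and 142 CPM in control. Its rise of 0.18 ± 0.06 (edgeR, adjusted p = 0.0357) was not called when any 1 of the 6 libraries was left out: the adjusted p was 0.14, 0.058 and 0.154 without control library 1, 2 or 3, and 0.199, 0.0632 and 0.0992 without CS-PA/CNP library 1, 2 or 3. It was 0.107 with library totals and 0.0864 with no filter on low counts. Without CS-PA/CNP library 3, Ppt1 was the single gene called lower. Tfeb had 66.3, 62 and 66 CPM with CS-PA/CNP and 53.2, 69.1 and 65.2 CPM in control, and Sgsh had 30.8, 33.3 and 28.1 CPM with CS-PA/CNP and 33.6, 36.3 and 31.9 CPM in control, so that the groups of both genes overlapped.

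CS-PA/CNP against control and PgLPS and CS-PA/CNP against PgLPS use different libraries, so they give separate measurements of what CS-PA/CNP did. Of the 32 genes, 16 had the same sign in both. Ppt1 and Lamp2 were called lower in both, 0 genes were called higher in both and 0 were called in opposite directions. These counts were not made over all tested genes, so they have no background to be read against.

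**Figure D4:**
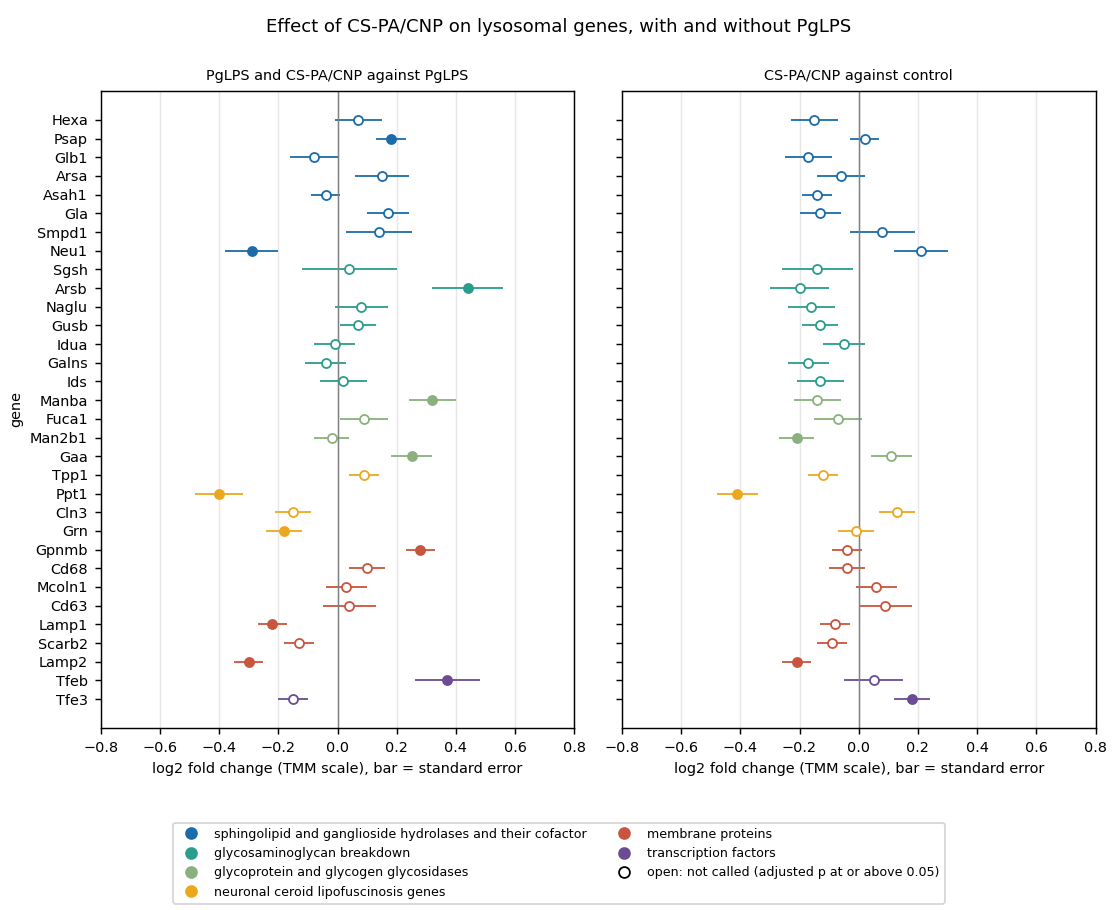
Log2 fold change with its standard error (horizontal axis) of each of the 32 genes for PgLPS and CS-PA/CNP against PgLPS (left) and CS-PA/CNP against control (right), coloured by role, with open circles for genes not called. Ppt1 lies at -0.40 on the left and -0.41 on the right, while Arsb, Tfeb and Manba lie to the right of 0 on the left side.

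Whether the PgLPS response differed with CS-PA/CNP was tested by the interaction, which is the log2 change with PgLPS among libraries with CS-PA/CNP minus that among libraries without it. It was called higher for 4 of the 32 genes and lower for 3, with 25 not called, while 7.46% of all tested genes were called higher and 8.34% lower. The median over the 32 genes was 0.14, against -0.01 over all genes tested. The 3 genes Arsb at 0.65 ± 0.16 (edgeR, adjusted p = 0.00669), Manba at 0.46 ± 0.11 (edgeR, adjusted p = 0.00697) and Gpnmb at 0.32 ± 0.07 (edgeR, adjusted p = 0.00404) had a smaller fall with PgLPS in the presence of CS-PA/CNP. Neu1 at -0.50 ± 0.12 (edgeR, adjusted p = 0.0071) and Tfe3 at -0.34 ± 0.08 (edgeR, adjusted p = 0.00493) had a smaller rise. These 5 calls held under each other setting run. Gla at 0.30 ± 0.09 (edgeR, adjusted p = 0.0348) had 153, 172 and 150 CPM with both agents, 147, 140 and 135 CPM with PgLPS, 123, 138 and 131 CPM with CS-PA/CNP and 142, 140 and 148 CPM in control. Its call was lost without control library 3 (adjusted p = 0.0701), CS-PA/CNP library 1 (0.0757) or 3 (0.0539), PgLPS library 3 (0.0976) or library 2 of both agents (0.0823). Cln3 at -0.28 ± 0.09 (edgeR, adjusted p = 0.043) lost its call with library totals (adjusted p = 0.167), with no filter on low counts (0.0826) and in 10 of the 12 fits with 1 library left out. In those 10 fits, the adjusted p was 0.118, 0.0759 and 0.0835 without control library 1, 2 or 3, then 0.0692, 0.089 and 0.139 without CS-PA/CNP library 1, 2 or 3, then 0.104 and 0.0733 without PgLPS library 2 or 3, and finally 0.111 and 0.0766 without library 1 or 3 of both agents. Tfeb and Ppt1 were not called in the interaction.

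PgLPS and CS-PA/CNP against CS-PA/CNP gives the PgLPS response in the presence of CS-PA/CNP, in libraries that share none with PgLPS against control. By edgeR 10 genes were higher, 13 lower and 9 not called, beside 26.6% of all tested genes higher and 25.4% lower, and the median of the 32 genes was -0.10, against -0.01 over all genes. Of the 32 genes, 29 had the same sign in both comparisons. There were 13 called lower in both and 8 called higher in both, with 0 called in opposite directions, and 25 had the smaller change in the presence of CS-PA/CNP. The same counts over all tested genes were not made, so these are not read as particular to the lysosomal genes. All tested genes also gave fewer calls with CS-PA/CNP present, at 3097 higher and 2957 lower, against 3750 and 3683 without it. The rises of Scarb2, Gla, Galns, Cln3 and Gaa in this comparison turned into falls with library totals. In it, 2 of the 10 rises (Lamp2 and Grn) and 10 of the 13 falls held under each of the 12 other settings run. Library totals moved the median gene by -0.32 on the log2 scale here, which by construction works against rises and for falls. Such counts of held calls were not made over all called genes. Sgsh again changed most, with 9.64, 5.85 and 9.33 CPM with both agents against 30.8, 33.3 and 28.1 CPM with CS-PA/CNP, a log2 fold change of -1.90 ± 0.14 (edgeR, adjusted p = 1.4e-09). Fuca1 fell by 0.72 ± 0.08 (edgeR, adjusted p = 2.6e-07), Tfeb by 0.69 ± 0.10 (edgeR, adjusted p = 1.2e-05) and Gpnmb by 0.52 ± 0.05 (edgeR, adjusted p = 6.6e-08). Grn rose by 0.46 ± 0.06 (edgeR, adjusted p = 2.3e-06) and Lamp2 by 0.45 ± 0.05 (edgeR, adjusted p = 6.3e-07). Tfe3 rose by 0.36 ± 0.06 (edgeR, adjusted p = 1.8e-05), of which 0.04 was left with library totals (adjusted p = 0.511).

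**Figure D5:**
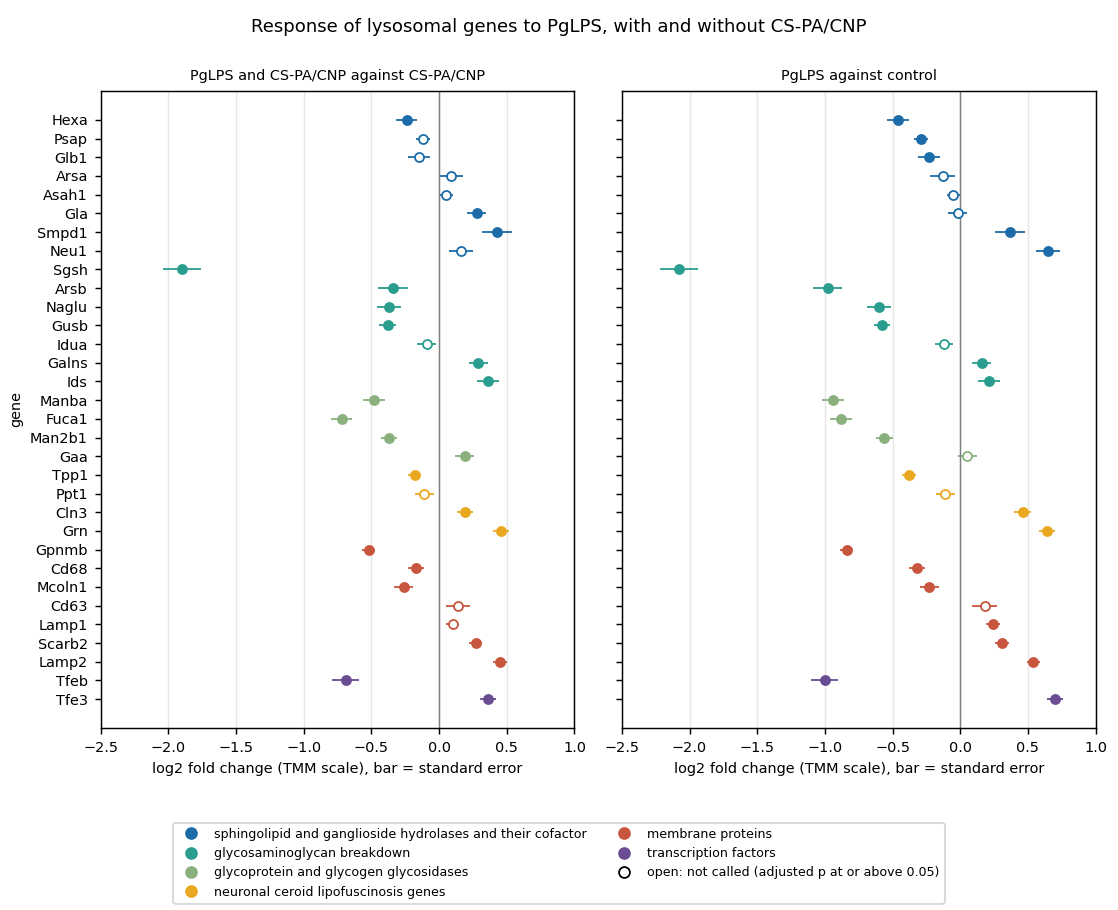
Log2 fold change with its standard error (horizontal axis) of each of the 32 genes for PgLPS and CS-PA/CNP against CS-PA/CNP (left) and PgLPS against control (right), coloured by role, with open circles for genes not called. Sgsh lies at -1.90 on the left and -2.08 on the right, and most genes lie nearer to 0 on the left.

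PgLPS and CS-PA/CNP against control combined both agents. It gave 10 genes higher, 15 lower and 7 not called by edgeR, beside 29.7% of all tested genes higher and 28.4% lower, with a median of -0.12 over the 32 genes and -0.01 over all genes. Sgsh had a log2 fold change of -2.05 ± 0.14 (edgeR, adjusted p = 3.4e-10), Fuca1 of -0.79 ± 0.08 (edgeR, adjusted p = 5.8e-08), Tfeb of -0.64 ± 0.10 (edgeR, adjusted p = 2.5e-05) and Manba of -0.62 ± 0.08 (edgeR, adjusted p = 1.4e-06). Ppt1 fell as well, by 0.52 ± 0.07 on the log2 scale (edgeR, adjusted p = 7.6e-06). Tfe3 was higher by 0.55 ± 0.06 (edgeR, adjusted p = 8.2e-08). It was the single rise of the 10 that held under each other setting run, while 14 of the 15 falls did. These counts were not made over all called genes. Library totals moved the median gene by -0.36 on the log2 scale here, which by construction works against rises and for falls. Lamp2, Neu1, Smpd1, Grn, Cln3 and Gaa changed call or direction under that setting alone. Lamp2 was higher by 0.24 ± 0.05 (edgeR, adjusted p = 5.3e-04) but turned to -0.12 with library totals. The directions of Cd63, Scarb2, Ids, Cln3 and Gaa turned with library totals too.

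Other lysosomal genes were read from 5 further lists that hold none of the 32 genes. Among 18 subunits of the V-ATPase, the proton pump that acidifies the lysosome, 11 were higher and 5 lower with PgLPS than in control, beside the 32.2% of all tested genes higher and 31.6% lower. The counts of the other lists below are read against the same shares, and several were near them. The rises included Tcirg1 at 0.94 ± 0.05 (edgeR, adjusted p = 4.1e-12) and Atp6v0c at 1.09 ± 0.06 (edgeR, adjusted p = 1.8e-11), and the falls Atp6v0a1 at -1.58 ± 0.06 (edgeR, adjusted p = 6.4e-15) and Atp6v0d2 at -1.81 ± 0.09 (edgeR, adjusted p = 1.7e-12). Tcirg1 and Atp6v0a1 encode alternative forms of the same pump subunit. Of 20 other hydrolases and cofactors, 6 were higher and 10 lower. Acp5, the tartrate-resistant acid phosphatase, was higher by 3.81 ± 0.11 (edgeR, adjusted p = 1.9e-16), Acp2, the lysosomal acid phosphatase, by 2.0 ± 0.06 (edgeR, adjusted p = 3.1e-16) and Npc2, a carrier of cholesterol out of the lysosome, by 1.22 ± 0.07 (edgeR, adjusted p = 5.4e-12), while Lipa, the lysosomal acid lipase, fell by 1.67 ± 0.05 on the log2 scale (edgeR, adjusted p = 3.5e-16). Each of these 3 rises was larger than any rise among the 32 genes.

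Of 21 other membrane proteins and exporters tested, 7 were higher and 8 lower with PgLPS. They included the peptide and histidine transporter Slc15a3 at 3.23 ± 0.06 (edgeR, adjusted p = 4.8e-19), the sialomucin Cd164 at 2.37 ± 0.08 (edgeR, adjusted p = 2.6e-15), the chloride-proton exchanger Clcn7 at 1.85 ± 0.05 (edgeR, adjusted p = 5.2e-16) and the two-pore channel Tpcn1 at -2.18 ± 0.07 (edgeR, adjusted p = 5.2e-15). Of 14 genes of mannose phosphate sorting, 8 were higher and 3 lower. M6pr, a receptor that carries tagged hydrolases, was higher by 1.09 ± 0.05 (edgeR, adjusted p = 3.7e-13) and Sort1, a receptor for progranulin and prosaposin, fell by 0.94 ± 0.09 (edgeR, adjusted p = 1.9e-08). Of 21 relatives of TFEB and genes of the nutrient signalling that controls it, 6 were higher and 7 lower. Tfec, a macrophage relative of Tfeb, was higher by 2.65 ± 0.08 (edgeR, adjusted p = 1.4e-15) and Rragd, which encodes a Rag GTPase, fell by 1.79 ± 0.16 (edgeR, adjusted p = 1.4e-08). The median log2 fold changes of these 5 lists were 0.28 for the V-ATPase, -0.21 for other hydrolases, -0.11 for other membrane proteins, 0.21 for mannose phosphate sorting and -0.01 for the relatives and signalling genes of TFEB. With library totals they were -0.13, -0.63, -0.52, -0.21 and -0.43 in that order, against -0.42 over all tested genes. The counts higher and lower were then 5 and 8 for the V-ATPase, 5 and 14 for other hydrolases and 6 and 13 for other membrane proteins. They were 1 and 8 for mannose phosphate sorting and 1 and 16 for the relatives and signalling genes of TFEB. Of all calls with library totals 21.8% were rises, so the balance of rises and falls in the lists rests on the scaling. The calls and directions of the single genes named so far from these lists held under each of the 12 other settings run. That holds for a choice of genes, since not every gene that could be named was named. Gga1 at 0.56 ± 0.07 (edgeR, adjusted p = 1.1e-06) and Ap1g1 at 0.54 ± 0.09 (edgeR, adjusted p = 3.8e-05), of mannose phosphate sorting, changed call with library totals. Rptor and Rragb, of the signalling genes of TFEB, were left out too and held under every setting.

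With both agents against PgLPS, Lipa was higher by 1.25 ± 0.05 (edgeR, adjusted p = 2.1e-12), Atp6v0a1 by 0.81 ± 0.05 (edgeR, adjusted p = 3.4e-09), Mfsd12, which is needed for the import of cysteine into lysosomes, by 0.68 ± 0.05 (edgeR, adjusted p = 2.6e-08) and Mitf, another relative of Tfeb, by 0.33 ± 0.06 (edgeR, adjusted p = 6.3e-04). Tfec fell by 0.48 ± 0.07 (edgeR, adjusted p = 9.1e-05), Slc15a3 fell by 0.46 ± 0.05 (edgeR, adjusted p = 4.5e-06) and Gnptab, which encodes part of the enzyme that makes the mannose phosphate tag, fell by 0.42 ± 0.07 (edgeR, adjusted p = 2.8e-04). These calls held under each of the 12 other settings run, but they too are a choice. Of the called genes left out, Rragd at 0.53 ± 0.18 (edgeR, adjusted p = 0.0469) changed call in 9 settings. Gga2 at 0.36 ± 0.1 (edgeR, adjusted p = 0.01) changed call in 2. Atp6v1b2, Atp6v0d2, Atp6v1e1, Acp2, Acp5, Dnase2a, Tpcn1, Clcn7 and Sort1 were left out as well and held. Over the lists, beside the 9.42% of all tested genes higher and 10% lower, the genes called higher and lower were 4 and 1 of 18 for the V-ATPase, 5 and 4 of 20 for other hydrolases, 5 and 4 of 21 for other membrane proteins, 2 and 1 of 14 for mannose phosphate sorting and 2 and 1 of 21 for the relatives and signalling genes of TFEB.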

How the data were processed

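The authors deposited whole-number read counts per gene, raw per the file headers, with gene lengths, in 1 table. Its other 12 columns of sample values were not used. Tools that the submitters' processing notes list are HISAT2 2.0.5, HTSeq 0.9.1, cutadapt 1.15 and DESeq 1.30.0, without roles. No source used here gives the build or annotation, so positions from the table are not printed. The letters in the names of the count columns were taken as groups (C control, M CS-PA/CNP, L PgLPS, LM both), which no label states outright. Library numbers are those of the columns.

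The main test was edgeR 4.0.16 (quasi-likelihood, R 4.3.3) with all 12 libraries in 1 fit, a mean per group, TMM scaling and filterByExpr, which kept 11656 genes with 99.97% of reads. It was 2-sided, with Benjamini-Hochberg adjustment over all tested genes and a threshold of 0.05. Errors of fold changes are standard errors. Libraries held 14992707 to 20082900 reads, and replicate pairs differed beyond sampling noise. Alternatives were DESeq2 1.42.0, its size factors, library totals, no filter, fits of the compared groups alone, a replicate block and each library left out. The program was tested on simulated data. The 32 genes and the further lists were chosen with earlier results of these data known. From each further list, up to 4 genes with the smallest adjusted p per comparison could be named. A gene of the further lists and a marker gene are not reported here and were left out of the list counts and sums. Promoter sequences are RefSeq's.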

Additional observations from a re-analysis of the deposited data

Results flagged for a closer look

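The PgLPS response of 7 lysosomal genes differed between macrophages with and without CS-PA/CNP by the interaction test of edgeR at an adjusted p under 0.05. Of the 32 genes 4 were called higher and 3 lower, beside 7.46% higher and 8.34% lower of all tested genes. The log2 difference was 0.65 for Arsb, 0.46 for Manba, 0.32 for Gpnmb and 0.30 for Gla, and it was -0.50 for Neu1, -0.34 for Tfe3 and -0.28 for Cln3. The calls of Gla and Cln3 were lost when single libraries were left out, with the values given above. Groups of 3 libraries were too small for a single library to be called an outlier. The fits with 1 library left out show how far the calls rest on single libraries.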

How the results depend on the processing

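Library totals in place of TMM changed the number of members called. For PgLPS against control they gave 4 members higher and 25 lower, and the share of calls over all genes that were rises was 21.8%, against 50.5% with TMM. They gave 3 lower for both agents against PgLPS, 0 higher and 5 lower for CS-PA/CNP against control, 1 higher and 23 lower for both agents against control, 2 higher and 20 lower for both agents against CS-PA/CNP, and 9 higher in the interaction. The share of rises among all calls was 61.4% against 48.4% with TMM for both agents against PgLPS, 41.9% against 54.3% for CS-PA/CNP against control, 21.3% against 51.1% for both agents against control, 20.3% against 51.2% for both agents against CS-PA/CNP and 63.7% against 47.2% for the interaction. Directions that turned with library totals were, for all 32 genes in PgLPS against control, Lamp1 at -0.18, Cd63 at -0.23, Scarb2 at -0.11, Smpd1 at -0.04, Galns at -0.26, Ids at -0.21 and Gaa at -0.36. Among the called genes alone they were, for both agents against control, Lamp2 at -0.12, Cd63 at -0.14, Scarb2 at -0.19, Ids at -0.14, Cln3 at -0.05 and Gaa at -0.06, and for both agents against CS-PA/CNP, Scarb2 at -0.06, Gla at -0.05, Galns at -0.04, Cln3 at -0.14 and Gaa at -0.13. With 1 library left out, Gaa ranged from -0.03 to 0.09 and Gla from -0.06 to 0.01 for PgLPS against control, neither of them called, with the turned sign without control library 1 for Gaa and without PgLPS library 3 for Gla.

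For CS-PA/CNP against control the members called higher were 0 with no filter on low counts and 2 with only the groups compared in the fit, and DESeq2 called 5 lower. With 1 library left out, the members called higher and lower ranged from 8 to 10 and 13 to 15 for PgLPS against control, 3 to 6 and 3 to 5 for both agents against PgLPS, 0 to 0 and 1 to 3 for CS-PA/CNP against control, 7 to 11 and 14 to 15 for both agents against control, 8 to 10 and 10 to 16 for both agents against CS-PA/CNP, and 3 to 5 and 2 to 3 for the interaction. A replicate block by library number gave 2 higher and 5 lower for CS-PA/CNP against control, 9 higher in the interaction, and called Cd63 higher for PgLPS against control. Deviations of libraries with the same number correlated at -0.0906 to 0.325 over genes, not all above 0.1. The library numbered 2 was the highest of its group for 17 to 23 of the 32 genes. Whether the numbers pair the libraries is not known, and the main fit did not pair them. Where a cause is not given by the construction of the setting, it was not tested. Depth did not keep any of the 32 genes out of the tests.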
